A study of Mus musculus with 20 samples.

Results

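Places where the retinoblastoma protein pRb and the histone methyltransferase Ezh2 were both found on chromatin were described in arrested mouse embryonic fibroblasts. A co-occupied place is a pRb peak that shares at least 1 bp with an Ezh2 peak of the same genotype, on the 19 autosomes. In wild-type cells (WT) 42230 of 401665 pRb peaks were co-occupied, and in the mutant cells that the labels call SS, without spelling the genotype out, 102938 of 617903. The cells were primary fibroblasts from C57BL/6 embryos at E13.5, grown in 10% serum to passage 4. The chromatin was fixed with EGS, a long-arm crosslinker, and formaldehyde, and sonicated. The labels of both arrested pRb libraries give confluence as the growth condition, while their treatment text gives 72 h in 0.1% serum. The Ezh2 and the arrested H3K27me3 libraries, each again WT and SS, are labelled as serum-deprived. pRb and H3K27me3 lists of proliferating WT and SS cells were used as further readouts, the labels list 5 antibodies for pRb; the 10 inputs were left aside. Each antibody, growth condition and genotype had 1 library. WT and SS could therefore be compared by their values alone, without a test. Shares of peaks are given with Wilson 95% intervals, which reflect only how many peaks were counted and treat neighbouring peaks as separate. The sequencing depth is unknown from the peak lists, so genotype, depth and peak calling cannot be told apart where lists differ in size.

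pRb is a tumour suppressor that binds E2F transcription factors and, in its hypophosphorylated form, holds E2F target genes silent in cells that have left the cell cycle. Ezh2 is the catalytic subunit of Polycomb repressive complex 2, which methylates lysine 27 of histone H3. The trimethylated form, H3K27me3, is the mark of Polycomb-silenced chromatin and in fibroblasts covers many genes of other lineages in broad domains. The series title links this tumour suppressor to the silencing of endogenous retroelements, and the Ezh2 and H3K27me3 libraries bear on whether pRb and the Polycomb enzyme lie at the same places.

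Co-occupied places made up 10.5% of WT pRb peaks (10.4 to 10.6) and 16.7% of SS pRb peaks (16.6 to 16.8). Seen from Ezh2, they held 42317 of 809627 WT peaks, or 5.23%, and 103637 of 1138246 SS peaks, or 9.10%. The SS lists of both proteins were the longer ones. The autosomal span, from the start of each autosome to its last peak in any list, was 2472 Mb. Ezh2 peaks covered 3.20% of it in WT and 4.91% in SS, and pRb peaks 3.07% and 5.45%. With the SS lists shortened to the number of WT peaks by score, the SS share was 11.9%. The share differed little between chromosomes: in WT it ran from 9.56% on chromosome 11 to 10.8% on chromosome 6, and in SS from 15.5% on chromosome 11 to 17.5% on chromosome 8.

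The overlap was mostly small. In WT, 99.6% of places held 1 Ezh2 peak and in SS 99.0%, and the largest number in 1 pRb peak was 3 in WT and 5 in SS. The shared stretch had a median of 50 bp in WT and 51 bp in SS, which are the shortest lengths in the respective Ezh2 lists. Its lower and upper quartiles were 37 and 88 bp in WT and 42 and 103 bp in SS. In total the shared stretches came to 2.81 Mb in WT, 0.113% of the autosomal span, and 7.64 Mb in SS, 0.309%. In 36.9% of WT places an Ezh2 peak lay wholly inside the pRb peak and in 5.56% the pRb peak lay wholly inside an Ezh2 peak. For SS the values were 39.0% and 5.28%. Places that only just met the 1 bp rule can be set beside pRb peaks that only just missed it. In WT, 15.6% of the 2844 places with 1 to 10 shared bp had an H3K27me3 peak, beside 13.7% of the 2735 pRb peaks whose nearest Ezh2 peak was 0 to 9 bp away. In SS the values were 9.70% of 6080 and 9.78% of 6168.

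How closely Ezh2 followed pRb was read from the share of pRb midpoints under an Ezh2 peak, which does not grow with the length of the pRb peak by itself. In WT it was 3.72% at the midpoint and 3.32% on average at 5 to 10 kb on either side, a ratio of 1.12. It fell to 1.08 at 100 bp and 1.03 at 500 bp. In SS it was 5.70% against 5.16%, a ratio of 1.10. The match of genotype made no visible difference: WT pRb midpoints lay under SS Ezh2 peaks at 5.74% against 5.10%, again 1.12, and SS pRb midpoints under WT Ezh2 peaks at 3.78% against 3.36%, or 1.13. H3K27me3 of the same genotype stood at 1.06 around WT and 1.07 around SS pRb midpoints on the same measure. For scale, the pRb peaks of the other genotype stood at 1.09 in both directions. The rise of Ezh2 at pRb peaks was thus of the same size between unlike genotypes as within 1 genotype.

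**Figure D1:**
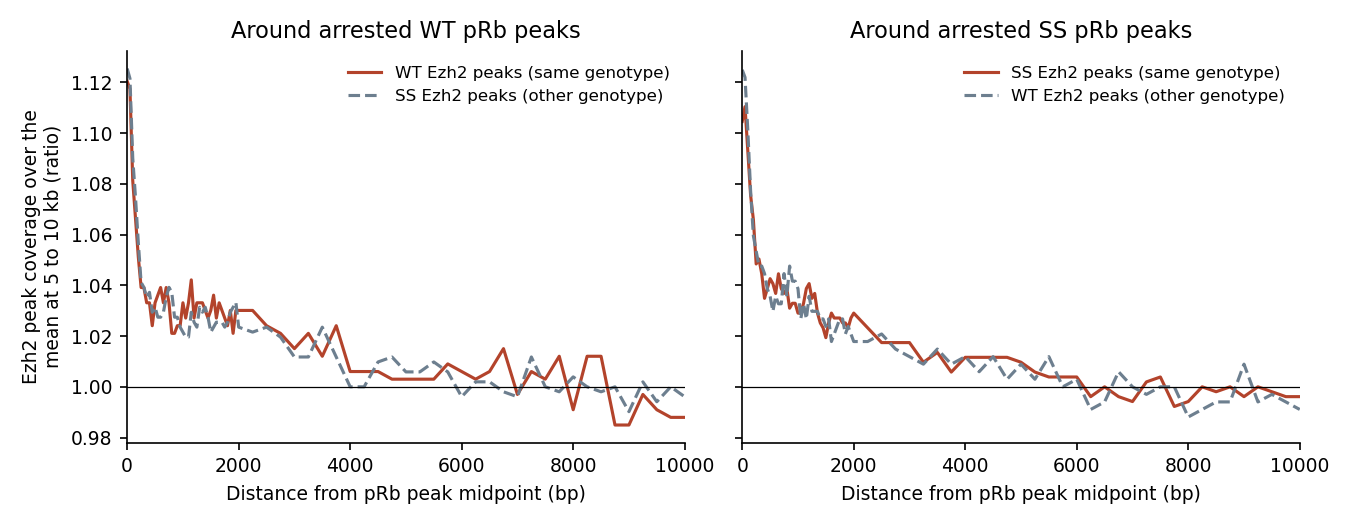
Ezh2 peak coverage by distance from the midpoint of arrested pRb peaks, averaged over both sides and divided by its mean at 5 to 10 kb. Solid lines are Ezh2 peaks of the same genotype and dashed lines those of the other genotype; all 4 lines start between 1.10 and 1.13 and are at 1.03 or 1.04 by 500 bp.

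The peaks that met were longer than those that did not, on both sides. WT pRb peaks at co-occupied places had a median length of 152 bp and a 90th percentile of 377 bp, beside 144 and 333 bp for pRb peaks without Ezh2. For SS the values were 172 and 430 bp beside 165 and 380 bp. Co-occupied Ezh2 peaks had a median of 51 bp in WT and 86 bp in SS, beside 50 and 51 bp for Ezh2 peaks without pRb. The shortest length of the list was held by 21140 of the 42317 WT Ezh2 peaks at places and by 62.1% of those elsewhere, and by 46.9% and 59.1% in SS. pRb peaks of at least 500 bp were 1.96% of WT places and 0.746% of other WT pRb peaks, and 4.57% and 1.90% in SS. A longer peak offers more bases to meet, so a difference of this direction follows from the 1 bp rule. Within the places, long pRb peaks did not pair with long Ezh2 peaks: Spearman's rho across places, which are not independent replicates, was -0.04 in WT (n = 42230) and -0.04 in SS (n = 102938).

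**Figure D2:**
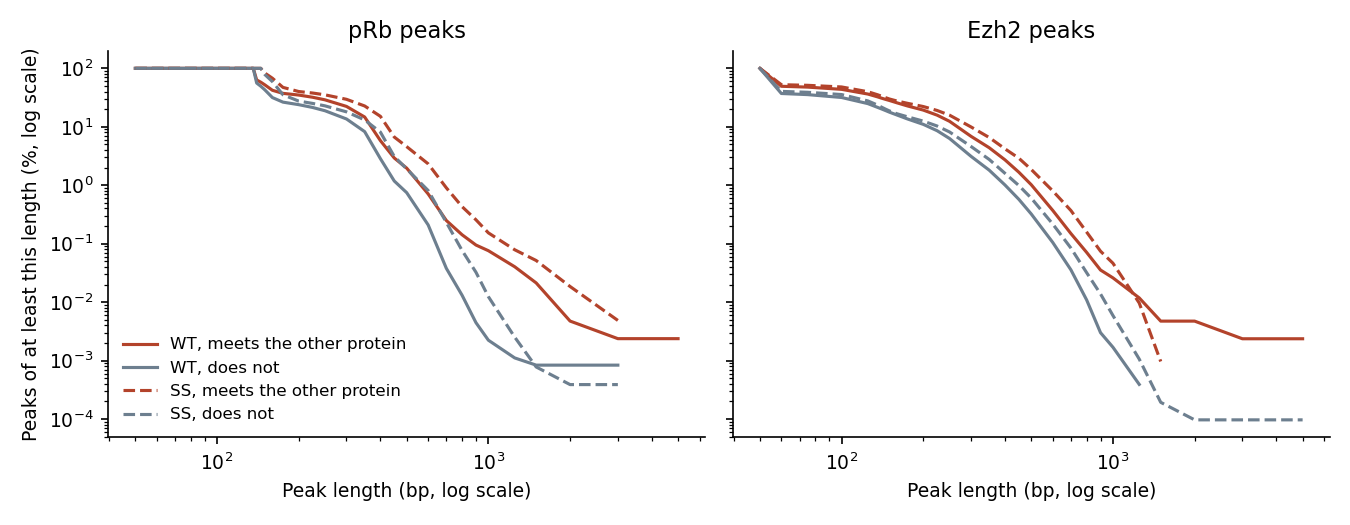
Share of pRb peaks (left) and Ezh2 peaks (right) that reach a given length, on log scales, for peaks that meet a peak of the other protein in the same genotype and for peaks that do not. Peaks that meet run above the others up to 1000 bp in both genotypes, with 1.96% of WT and 4.57% of SS co-occupied pRb peaks reaching 500 bp; the longest SS Ezh2 peak, 5818 bp, is one without pRb.

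The share of pRb peaks with Ezh2 rose from 8.95% of WT peaks under 150 bp (8.84 to 9.07) to 22.9% of those of 500 to under 1000 bp (21.5 to 24.3). In SS it rose from 17388 of 128609 peaks (13.3 to 13.7%) to 31.9% (31.1 to 32.6). The midpoint measure did not rise over the same classes. It was 3.76% under 150 bp and 3.75% at 500 to under 1000 bp in WT, and 5.69% and 5.39% in SS. Only pRb peaks of 1000 bp or more stood apart on both measures. In WT 32 of these 40 peaks were co-occupied, 80.0% (65.2 to 89.5), and 11 of 40 midpoints, 27.5% (16.1 to 42.8), lay under an Ezh2 peak. In SS 157 of 221 were co-occupied, 71.0% (64.7 to 76.6), and 31 midpoints, 14.0% (10.1 to 19.2), lay under one. Of these longest peaks, 31 of the 40 in WT and 122 of the 221 in SS lay in 62 bins of 100 kb in which at least 3 of the 4 pRb and Ezh2 lists had a coverage in their top 1%, here called dense bins. Outside the dense bins the midpoint share of the longest peaks was 22.2% in WT (2 of 9 peaks, 6.32 to 54.7) and 9.09% in SS (9 of 99, 4.86 to 16.4). The interval for SS includes the 5.69% of the shortest class.

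The dense bins were chosen for high coverage in the same lists that define co-occupancy, so a high share of places in them follows from the choice and the values are a description. In WT 577 of their 1692 pRb peaks met Ezh2, 34.1% beside 10.4% elsewhere, and in SS 1117 of 2524, 44.3% beside 16.5%. They contained 1.37% of WT and 1.09% of SS places. The bin with the most WT places was chr5:14900001-15000000 in mm9, where 31 of 39 pRb peaks met an Ezh2 peak, while a bin with any place had a median of 2. Next came chr5:15100001-15200000 and chr8:19700001-19800000 with 21 of 31 each. In SS the bins chr4:146800001-146900000 and chr4:146900001-147000000 had 35 places each. Without the dense bins the shares over all pRb peaks were 10.4% in WT and 16.5% in SS. Which genes or repeats these bins hold was not analysed here.

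The scores did not single out co-occupied pRb peaks. The authors' pRb score, whose unit no header states, had a median of 97.9 at WT places and 108 at WT pRb peaks without Ezh2, and of 111 and 119 in SS. To hold length nearly constant, pRb peaks under 200 bp were also split by score into 4 classes at the quartiles. From the lowest to the highest class the co-occupied share was 8.96%, 9.05%, 9.10% and 9.44% in WT and 13.8%, 14.0%, 14.3% and 14.6% in SS. The Ezh2 score, the -log10 q-value of the authors' caller, had a median of 1.82 with pRb and 1.81 without in WT, and 2.35 and 2.26 in SS. The median fold enrichment of Ezh2 peaks was 3.46 in both WT sets, and 3.60 with pRb beside 3.56 without in SS. Within places the scores of the pRb and the Ezh2 peak were nearly unrelated, with a Spearman's rho of 0.00 in WT (n = 42230) and 0.02 in SS (n = 102938), again across places.

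The exception was a very small set of Ezh2 peaks with extreme scores. In WT the share of Ezh2 peaks with a WT pRb peak was 5.37% at a score of 2 to under 5 (275178 peaks) and 5.46% at 5 to under 10 (5691 peaks). It was 9.52% at 10 to under 20 (6 of 63 peaks, 4.44 to 19.3), 16.7% at 20 to under 40 (2 of 12, 4.70 to 44.8) and 56.0% at 40 or more (14 of 25, 37.1 to 73.3). In the SS list the share with an SS pRb peak was 9.35% at a score of 2 to under 5, 8.80% at 5 to under 10 and 9.31% at 10 to under 20 (79 of 849 peaks), with no rise up to there. It was 42.9% at 20 to under 40 (6 of 14, 21.4 to 67.4) and 77.8% at 40 or more (14 of 18, 54.8 to 91.0). These classes of score were chosen after the values were seen, and their counts are a description.

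These extreme Ezh2 peaks met most of the arrested lists, and 11 of the 25 in WT and 8 of the 18 in SS were in all 6 of them, while 3 in each set met no arrested pRb peak. All 25 WT peaks of a score of 40 or more met an SS Ezh2 peak, 21 met an SS pRb peak, and 22 met an H3K27me3 peak in each of the arrested lists. At WT Ezh2 peaks with a score of 2 to under 5 the shares were 12.0% for SS Ezh2 and 9.21% for SS pRb. For arrested WT and SS H3K27me3 they were 11.5% and 8.70%. All 18 SS peaks met a WT Ezh2 peak, 11 met a WT pRb peak, and 15 met arrested SS and 16 arrested WT H3K27me3. At SS Ezh2 peaks with a score of 2 to under 5 the shares were 8.60% for WT Ezh2 and 5.56% for WT pRb. For arrested SS and WT H3K27me3 they were 8.61% and 11.7%. In the proliferating lists 20 of the 25 WT peaks met H3K27me3 of WT cells and 18 that of SS cells. At WT Ezh2 peaks with a score of 2 to under 5 these shares were 11.7% and 14.2%. Proliferating pRb peaks were at 0 of 25 and at 0 of 18 in both genotypes, which allows a share of up to 13.3% and 17.6% by the upper Wilson bound. At WT Ezh2 peaks with a score of 2 to under 5, proliferating WT and SS pRb were at 0.904% and 1.19%. At SS Ezh2 peaks of these scores they were at 0.919% and 1.23%. With shares this low, counts of 0 do not set the extreme peaks apart. The proliferating pRb lists were also far shorter, with 76548 and 104728 autosomal peaks that covered 0.456% and 0.619% of the span. The WT Ezh2 peaks of this set were 65 to 429 bp long, with a median of 90 bp, and lay on 14 chromosomes. Their median fold enrichment was 31.7, and 3 of them had a fold under 3 in spite of their score. The 14 WT pRb peaks there had a median score of 133, beside 106 over all WT pRb peaks, and 3 of them were above the 90th percentile of 207. The pRb peak of the highest score among them, at 1015, was the one at the Ezh2 peak of the highest score.

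**Figure D3:**
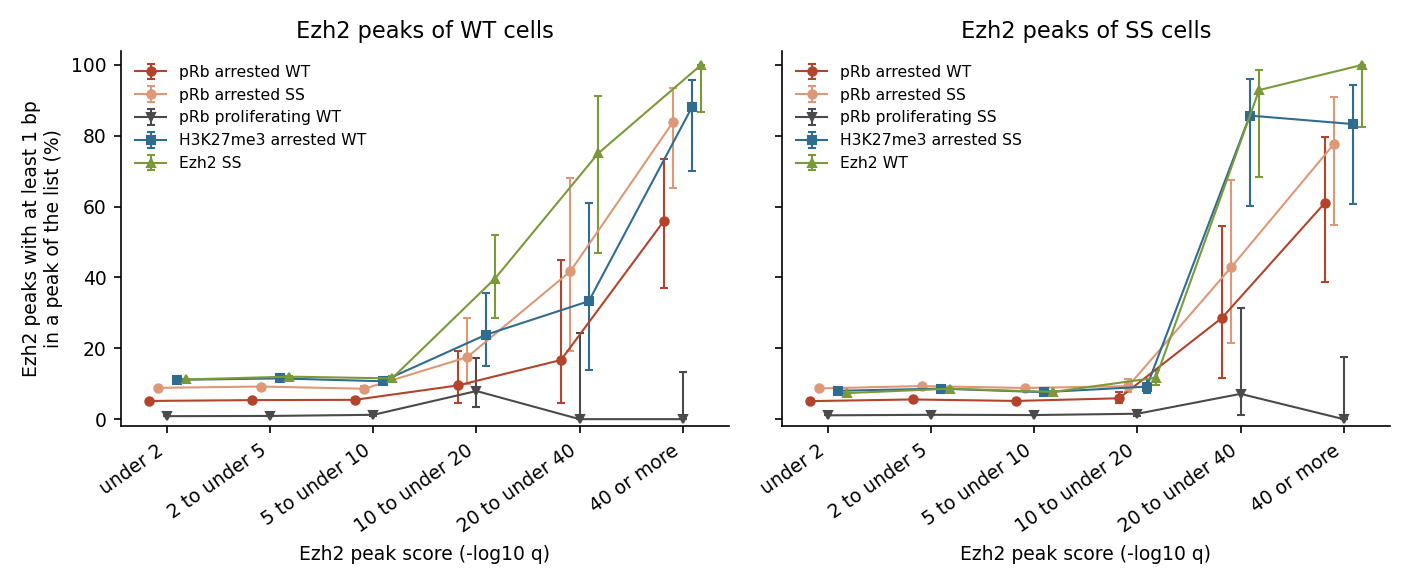
Share of Ezh2 peaks that share at least 1 bp with a peak of another list, by the score of the Ezh2 peak, for WT (left) and SS (right) Ezh2; bars are Wilson 95% intervals. The lists are near level up to a score of 10, and those other than proliferating pRb are high at 40 or more. Proliferating pRb of the same genotype was at 0 of 25 and 0 of 18 peaks there. It was also low at a score of 2 to under 5, at 0.904% in WT and 1.23% in SS.

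Individual places were named by rank of score, by shared length and by presence in both genotypes; positions are in mm9. The place of highest rank for both proteins in both genotypes was chr6:103598728-103599371. Its pRb score was 1015 in WT and 3100 in SS, and its Ezh2 score 865 in WT and 897 in SS, but its Ezh2 fold enrichment was only 1.68 and 1.67. It had an H3K27me3 peak in the arrested WT list, with a fold of 1.31, and in none of the other 3 lists of that mark. The WT place next in rank was present in few lists: at chr5:141966568-141966713 the WT pRb score was 508 and the Ezh2 score 7.12, the shared stretch was 50 bp, and the 8 other lists were empty there. The SS place next in rank, chr9:24346363-24346873, had a pRb score of 674 and an Ezh2 score of 49.4 with a fold of 2.17, was co-occupied in WT too, and had no H3K27me3 peak in any list.

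The next 5 places were the leading ones among WT places that were co-occupied in SS and carried H3K27me3 in both genotypes. This choice fixed a peak in all 6 arrested lists, so only the proliferating lists could differ. All 5 had a peak in both proliferating H3K27me3 lists and in neither of the 2 proliferating pRb lists. Over all WT places the proliferating WT and SS H3K27me3 lists met 13.3% and 16.4%. Of the WT places co-occupied in SS they met 19.6% and 22.2%. The proliferating WT and SS pRb lists met only 1.45% and 1.84% of all WT places, so their absence does not set these 5 apart. All 5 Ezh2 peaks belong to the extreme set above, which a ranking by score favours. At chr17:4625956-4626642 the pRb peak was 687 bp long with a score of 303 in WT and 402 bp long with a score of 446 in SS. The Ezh2 peak was 429 bp with a fold enrichment of 32.9 in WT, wholly inside the pRb peak, and 414 bp with a fold of 19.1 in SS, where 397 bp were shared. H3K27me3 there had a fold of 14.3 in arrested WT and 22.8 in arrested SS, and of 8.28 and 6.34 in proliferating WT and SS cells. At chr9:19379786-19380038 the pRb score was 242 in WT and 233 in SS, the Ezh2 fold 42.7 and 20.7, and the H3K27me3 fold 16.1 and 21.0 in arrested cells. The place at chr1:12634779-12635012 had pRb scores of 147 and 160, Ezh2 folds of 33.1 and 41.2, and the highest arrested SS H3K27me3 score of any peak in that list, 107. At chr5:131995452-131995781 the Ezh2 fold was 38.5 in WT and 8.13 in SS. The H3K27me3 peaks at these 4 places were narrow, from 218 to 737 bp in all 4 lists of the mark. At chr7:52878946-52879184 alone it was broad, with a peak of 2794 bp in arrested SS, 6107 bp in proliferating WT and 19039 bp in proliferating SS cells, but 217 bp in arrested WT cells.

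The longest shared stretches were of another kind, with long pRb peaks. At chr17:39979867-39985855 a WT pRb peak of 5989 bp, with a score of 20.3 that is close to the lowest score in the list, shared 5548 bp with 2 WT Ezh2 peaks. The Ezh2 scores were 5.32 and 4.19, above the 90th percentile of 2.99 of co-occupied WT Ezh2 peaks, and the fold was 1.72 and 1.71. All 4 H3K27me3 lists had 1 peak of 5833 to 5941 bp with nearly the same ends, with a fold of 1.68 in arrested SS, 1.89 in arrested WT, 2.20 in proliferating WT and 3.20 in proliferating SS cells. SS Ezh2 had a peak of 5818 bp there and SS pRb none. The next was chr5:15197778-15200216, a WT pRb peak of 2439 bp in a dense bin that shared 1185 bp with 3 Ezh2 peaks and met 9 of the 10 lists. In SS the longest shared stretch, 1550 bp, was at chr18:7320951-7323766, outside the dense bins, where a pRb peak of 2816 bp met 4 Ezh2 peaks. The next, 1506 bp, was at chr1:85269767-85274044, where 1 pRb peak of 4278 bp met 5 Ezh2 peaks. All 5 WT places with the longest shared stretches lay in dense bins, and all 5 met SS Ezh2. Dense bins were chosen for high coverage in lists that include SS Ezh2, so both counts are a description. An SS Ezh2 peak was at 49.9% of all WT places in dense bins. It was at 28 of the 32 WT places of 1000 bp or more and at 38.7% of those of 500 to under 1000 bp.

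H3K27me3 was slightly more frequent at co-occupied places than at other pRb peaks. In WT 6371 places, 15.1% (14.7 to 15.4), met an arrested WT H3K27me3 peak, beside 13.6% of pRb peaks without Ezh2 and 13.7% of all pRb peaks, a ratio of 1.11. In SS 10292 places, 10.0% (9.82 to 10.2), met an arrested SS H3K27me3 peak, beside 9.13% and 9.27%, a ratio of 1.10. Part of this went with peak length. When pRb peaks without Ezh2 were given the same mix of lengths as the places, the ratios were 1.06 in WT and 1.08 in SS. With the midpoint rule for every overlap the ratio was 1.04 in WT (0.991 to 1.10) and 1.06 in SS (1.03 to 1.10). Other H3K27me3 lists gave ratios of the same size. At WT places the arrested SS list gave 10.6% beside 9.81% at equal lengths, and the proliferating WT and SS lists gave ratios of 1.07 and 1.08 at equal lengths. Most places met no H3K27me3 peak of their own genotype, 84.9% in WT and 90.0% in SS.

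Within classes of pRb length the ratio in WT was 1.05 in each class under 400 bp, 1.12 at 400 to under 500 bp and 1.23 at 500 to under 1000 bp. In SS it had no steady course, with 1.13 at 300 to under 400 bp, 1.09 in the next class and 1.26 at 500 to under 1000 bp. At 500 to under 1000 bp, H3K27me3 was at 28.1% of WT places (25.1 to 31.3) beside 22.9% of pRb peaks without Ezh2, and at 12.4% of SS places (11.4 to 13.4) beside 9.84%. At 1000 bp or more it was at 17 of 32 WT places, 53.1% (36.4 to 69.1), beside 3 of 8. In SS it was at 28 of 157 places, 17.8% (12.6 to 24.6), beside 13 of 64, 20.3%, the one class in which the sign was opposite and within the counting error. The same SS places of 1000 bp or more met H3K27me3 far more often in proliferating lists, 52.9% in WT and 64.3% in SS cells, beside 25.0% and 28.1% of SS pRb peaks without Ezh2. The arrested WT list met 60.5% of these SS places and 45.3% of the SS pRb peaks without Ezh2. The low share was thus seen in the arrested SS list alone. That list has 208802 autosomal peaks, beside 632166 in arrested WT, 130883 in proliferating WT and 166592 in proliferating SS. It covers 6.45% of the span, beside 7.47%, 9.51% and 11.5% in the same order. The part of list size in this was not tested.

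**Figure D4:**
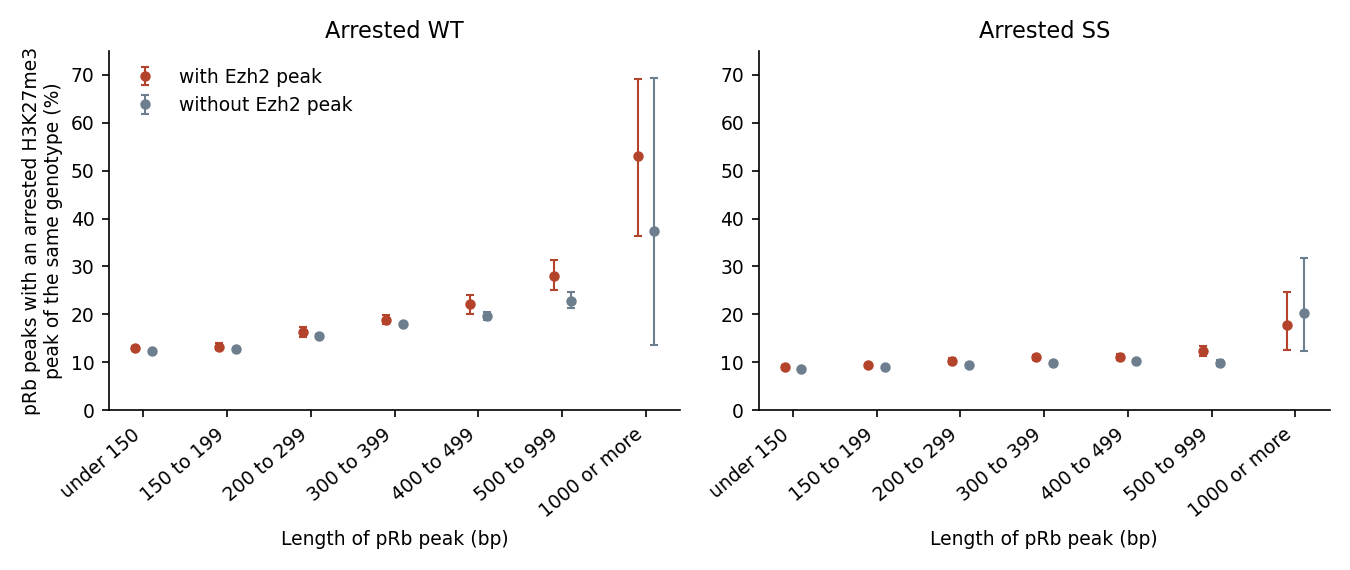
Share of arrested pRb peaks that meet an arrested H3K27me3 peak of the same genotype, by pRb length, with and without an Ezh2 peak; bars are Wilson 95% intervals. In WT the places run from 13.0% under 150 bp to 53.1% at 1000 bp or more, and in SS from 9.09% to 17.8%, close to the peaks without Ezh2 in most classes.

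The H3K27me3 peaks that the places met differed in length between the genotypes, as the whole lists did. Over all autosomal peaks the arrested H3K27me3 list had a median length of 138 bp in WT and 439 bp in SS. In WT the H3K27me3 peaks met by places had a median length of 252 bp, beside 236 bp at pRb peaks without Ezh2. Their median fold was 6.22 beside 6.16. In SS they had a median length of 872 bp beside 987 bp and a fold of 3.34 beside 3.38. Broad domains held few places. In WT 13 places, 0.0308%, lay in an H3K27me3 peak of at least 5 kb, beside 0.0479% of other pRb peaks. In SS 1034 places, 1.00%, did so, beside 1.08%, and 381 lay in a peak over 10 kb, 0.370% beside 0.416%. Places were thus no more frequent in broad H3K27me3 peaks than pRb peaks without Ezh2. Read from the Ezh2 side, 12.5% of WT Ezh2 peaks with pRb met H3K27me3 and 11.2% of those without, and 9.06% and 8.30% in SS. Among Ezh2 peaks of the shortest length the ratio was 1.02 in WT and 1.05 in SS.

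Most WT places, like most other WT pRb peaks, were not found again in SS cells. Of the 42230 WT places, 30274 or 71.7% met neither an SS pRb nor an SS Ezh2 peak. A further 4280 or 10.1% met SS pRb only, 6518 or 15.4% met SS Ezh2 only, and 1158 or 2.74% met both. For WT pRb peaks without Ezh2 the shares were 76.0% for neither, 9.15% for SS pRb only, 13.1% for SS Ezh2 only and 1.79% for both. An SS pRb peak was at 12.9% of WT places (12.6 to 13.2), beside 10.9% of WT pRb peaks without Ezh2 and 11.1% of all WT pRb peaks. An SS Ezh2 peak was at 18.2% (17.8 to 18.5), beside 14.9% and 15.2%. A co-occupied SS pRb peak was at 1239 places, 2.93% (2.78 to 3.10), beside 2.01% and 2.11%. At equal lengths the ratios of WT places to WT pRb peaks without Ezh2 were 1.11 for SS pRb, 1.14 for SS Ezh2 and 1.38 for co-occupancy. WT pRb peaks without Ezh2 were found again less often still. Around the midpoints of WT places, SS pRb coverage was 6.80% beside 5.87% at 5 to 10 kb and SS Ezh2 coverage 6.52% beside 5.35%, ratios of 1.16 and 1.22. Around WT pRb peaks without Ezh2 these ratios were 1.08 and 1.11.

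At WT places SS Ezh2 was somewhat more frequent where SS pRb was present. Where a WT place met SS pRb, 21.3% also met SS Ezh2, and where it did not, 17.7% did. At WT pRb peaks without Ezh2 the values were 16.4% and 14.7%. These shares were not matched for length, and longer WT places met both SS lists more often. From under 150 bp to 500 to under 1000 bp, SS pRb rose from 10.6% to 26.8% of WT places. SS Ezh2 rose from 14.2% to 38.7%. The part of length and of dense bins in this difference was not tested. In the opposite direction, 1233 of the 102938 SS places, 1.20% (1.13 to 1.27), met a co-occupied WT pRb peak, beside 0.822% of SS pRb peaks without Ezh2. Neither WT protein was met by 79.3% of SS places, beside 82.6% of SS pRb peaks without Ezh2. The stretches of DNA that lay under a peak of all 4 pRb and Ezh2 lists numbered 513, with a median of 41 bp, and came to 29.4 kb in all, 1.05% of the WT shared length. Of the WT places, 20493 or 48.5% met none of the 8 other lists, and in SS 55168 or 53.6% met none. At 0 places did all 8 others have a peak. The 8 include the proliferating pRb lists, which covered only 0.456% and 0.619% of the span. These counts were not made for pRb peaks without Ezh2, so they do not set places apart from other pRb peaks.

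**Figure D5:**
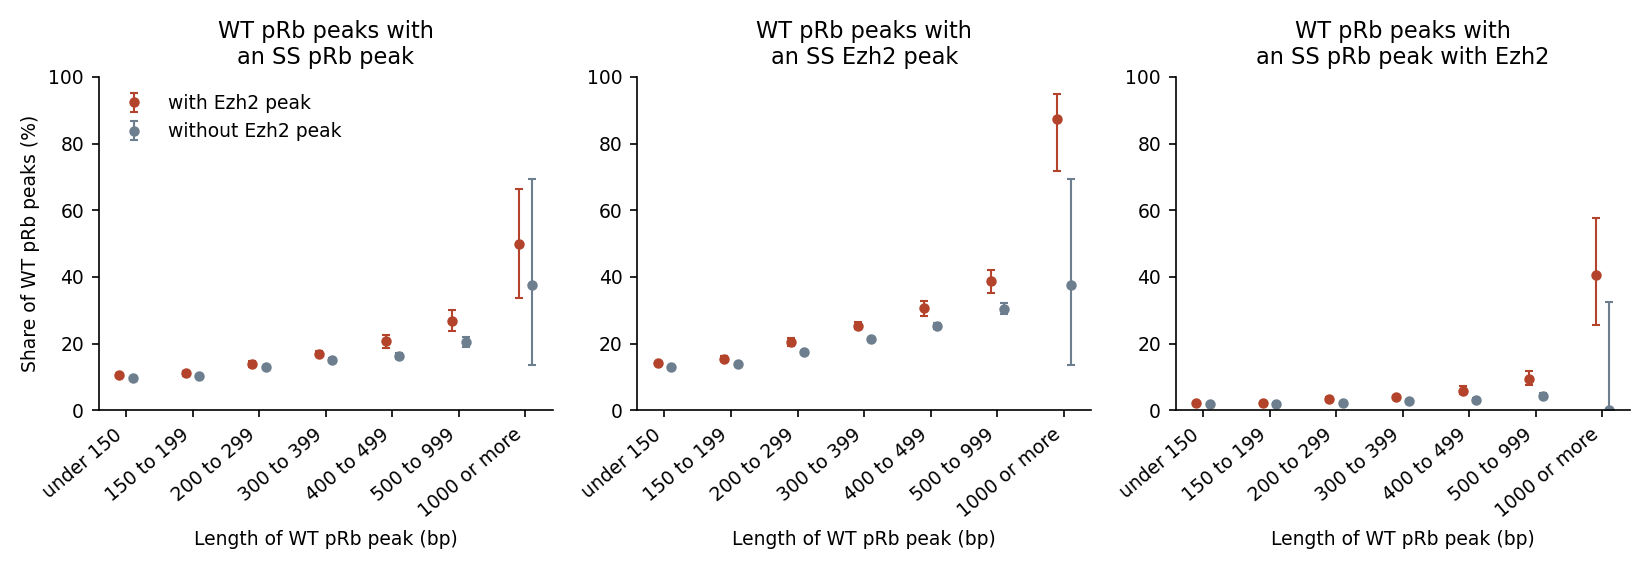
Share of WT pRb peaks that meet an SS pRb peak (left), an SS Ezh2 peak (centre) or an SS pRb peak that itself meets SS Ezh2 (right), by length of the WT pRb peak, with and without WT Ezh2; bars are Wilson 95% intervals. Co-occupied places lie above the others in each class, from 2.15% beside 1.79% under 150 bp to 40.6% beside 0 of 8 peaks at 1000 bp or more in the right panel.

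The places found again were longer and lay more often in dense bins. The 1239 WT places had a median pRb length of 213 bp and a median Ezh2 length of 112 bp, beside 151 and 50 bp for places not found again. Their pRb score was lower, with a median of 86.4 beside 97.9, and their Ezh2 score about equal, 1.87 beside 1.82. Dense bins held 174 of them, 14.0%, beside 0.983% of the others. Dense bins were chosen partly on the SS lists, so that count, too, is a description. Within them 30.2% of WT places were co-occupied in SS, beside 15.2% of WT pRb peaks without Ezh2, and elsewhere 2.56% beside 1.97%. The retained share rose from 2.15% of WT places under 150 bp (1.95 to 2.35) to 9.45% at 500 to under 1000 bp (7.60 to 11.7), while for WT pRb peaks without Ezh2 it rose from 1.79% to 4.30%. Of the 32 longest places 13 were found again, 40.6% (25.5 to 57.7), and of the 8 longest WT pRb peaks without Ezh2 none were. Seen from SS, 61 of the 157 places of 1000 bp or more, 38.9% (31.6 to 46.7), met a co-occupied WT pRb peak, beside 4 of the 64 pRb peaks of that length without Ezh2.

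H3K27me3 at WT places, as at other WT pRb peaks, was also mostly found in 1 genotype only. It was present in both arrested lists at 1409 places, in WT only at 4962, in SS only at 3067 and in neither at 32792. The shares in WT only, in SS only and in neither were 11.7%, 7.26% and 77.7%. For WT pRb peaks without Ezh2 these shares were 10.6%, 6.61% and 79.8%, and 10797 of those 359435 peaks had the mark in both lists. An SS mark was at 22.1% of WT places with a WT mark and at 8.55% of those without. At WT pRb peaks without Ezh2 the values were 22.1% and 7.65%, the same share where WT had the mark. The WT places found again had a WT mark at 19.6% and an SS mark at 12.3%, beside 14.9% and 10.5% for the others. Both marks were at 56 of the 1239, beside 1353 of the 40991 others. Places found again were longer, and longer WT places met the WT mark more often. The part of length in this difference was not tested.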

How the data were processed

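Peak lists of 10 immunoprecipitated libraries were used, 1 per group, with groups taken from the sample titles. The submitters' processing notes name Bowtie2, MACS2, HOMER and bedtools with the build mm9; versions, control and settings: not given in the sources used here. The deposited pRb lists hold a score of unstated unit, 20 at the lowest. The other deposited lists hold a score, a fold enrichment as a ratio, and the -log10 p-value and -log10 q-value of the authors' caller; each row's score equals 10 times the -log10 q-value, truncated. The -log10 q-value serves here as the score of these lists. Scores were used only within a list. A deeper library can yield more and weaker peaks, which would move the shares. Depth is unknown here, so its part was not tested.

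Overlap was 1 bp or more on chromosomes 1 to 19. Positions are counted from 1. Equal lengths means that the shares of pRb peaks without Ezh2 in 7 length classes were weighted by the places' lengths. Places were named as the 5 with the lowest sum of pRb and Ezh2 score ranks per genotype, the 5 with the longest shared stretch, and the 5 of lowest rank sum among WT places co-occupied in SS with H3K27me3 in both; the leading ones are described. The places and rules were chosen with earlier results of these data known. The overlap functions were tested on simulated intervals. No mm9 annotation or sequence was used. Python 3.11.15, numpy 2.4.6, pandas 2.3.3 and scipy 1.17.1 were used.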

Additional observations from a re-analysis of the deposited data

How the results depend on the processing

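In each alternative 1 choice was changed. Leaving out the shortest peaks touched the Ezh2 lists only, and the 500 bp and proliferating alternatives touched H3K27me3 only. At equal list lengths the longer list of each WT and SS pair was cut by score. That was SS for pRb and Ezh2, but for arrested H3K27me3 the WT list was cut to 208802 peaks. The other alternatives treated every list alike. The co-occupied share of pRb peaks in WT and SS was 7.57% and 12.1% when at least 50% of the shorter peak had to be shared, 5.28% and 8.92% without Ezh2 peaks of the shortest length, 5.03% and 8.60% in the higher-scoring 50% of each list, 17.5% and 29.8% after merging peaks within 1 kb, 10.4% and 16.5% without dense bins, 10.3% and 16.4% with the sex chromosomes, and 3.72% and 5.70% by the midpoint; at equal list lengths SS had 11.9%. The ratio of H3K27me3 shares, with over without Ezh2, stayed above 1. In WT it was 1.17 without the shortest Ezh2 peaks, 1.17 at equal list lengths, 1.31 after merging, 1.04 by the midpoint and 1.08 with the list of proliferating cells, an alternative added after the data were seen. In SS it was 1.06 with 50% shared, 1.14 without the shortest Ezh2 peaks, 1.07 in the higher-scoring 50%, 1.28 after merging, 1.06 with H3K27me3 peaks of at least 500 bp and 1.06 by the midpoint.

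The shares of WT places with SS pRb, with SS Ezh2 and co-occupied in SS were 8.53%, 13.7% and 1.64% with 50% shared, 13.2%, 11.3% and 2.24% without the shortest Ezh2 peaks, 5.67%, 8.67% and 0.801% in the higher-scoring 50%, 8.04%, 13.6% and 1.28% at equal list lengths, 20.5%, 33.6% and 8.43% after merging, 12.4%, 17.7% and 2.55% without dense bins, and 7.12%, 7.00% and 0.709% by the midpoint. Relative to WT pRb peaks without Ezh2, these 3 ratios stayed above 1 in all 8 alternatives, at 1.11 to 1.36, 1.13 to 1.39 and 1.30 to 2.04. No paired analysis was possible because each group has 1 library and the labels give no replicate numbers. Depth is unknown, so the difference in list size between WT and SS cannot be corrected.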

Other observations

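The pRb lists of proliferating cells met few places of arrested cells. In WT 614 of the 42230 places, 1.45% (1.34 to 1.57), met a proliferating WT pRb peak, beside 1.16% of arrested pRb peaks without Ezh2, and 775, 1.84%, met a proliferating SS pRb peak, beside 1.64%. At equal lengths the ratios were 1.14 and 1.03. In SS 2.00% of places (1.92 to 2.09) met a proliferating SS pRb peak, beside 1.66%, a ratio of 1.10 at equal lengths. Among SS pRb peaks of 1000 bp or more the difference was wider: 33 of 157 places, 21.0% (15.4 to 28.0), met a proliferating WT pRb peak, beside 4 of 64, 6.25% (2.46 to 15.0), of those without Ezh2. WT pRb peaks of that length did not show it, with 5 of 32 places, 15.6% (6.86 to 31.8), beside 2 of 8 without Ezh2, and for proliferating SS pRb 4 of 32 beside 1 of 8. Dense bins held 122 of the 221 SS peaks, and their part in this difference was not tested.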
